A study of Mus musculus with 26 samples.

Results

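Tumor necrosis factor (TNF) and the transcription factor NF-κB were followed through 10 genes of their pathway in mouse lungs exposed to ozone (O3), with and without interleukin-10 (IL-10). The 10 genes were chosen by name, with earlier results of these data known. They were the ligand Tnf, its receptors Tnfrsf1a and Tnfrsf1b, the NF-κB subunits Rela, Relb and Nfkb2, the inhibitors Nfkbia and Tnfaip3, and the NF-κB targets Bcl3 and Icam1. All 10 were measured among 12394 genes on Affymetrix arrays of left lung RNA, and each was represented by its brightest probe set with a single symbol. Il10-/- mice (B6.129P2-Il10tmlCgn/J) and Il10+/+ mice (C57BL/6) were male, 6 to 8 weeks old and from Jackson Labs, and breathed either 0.3 ppm O3, with exposures that ended at 24, 48 and 72 hr, or filtered air for 24 or 48 hr, in each case for 23.5 hr of the day. There were 26 arrays, 3 for each genotype and O3 time, and 4 air arrays for each genotype. The Il10-/- 24 hr O3 replicate 2 was left out of the comparisons, which left 25 arrays in 8 groups and 2 arrays in that group. The study's methods set aside an outlier of the same group without naming its replicate, and the array left out here is the one that stood apart in the cell type genes. The Il10-/- mice lack IL-10 in every cell from birth, so the comparison of genotypes is not one of acute loss.

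TNF is a cytokine that binds the receptors TNFR1 and TNFR2 on neighbouring cells and activates NF-κB. In resting cells NF-κB dimers are held in the cytoplasm by inhibitors such as IκBα, and after a signal the inhibitor is degraded and the dimers enter the nucleus and switch on genes of inflammation, among them their own inhibitors. IL-10 is a cytokine that restrains this response in macrophages and neutrophils. NF-κB is controlled largely by moving and modifying proteins, which an array of transcripts does not measure.

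Several arrays stood apart. The array left out had 7.11 (mean log2 value over 9 alveolar type 2 cell genes), against 12.35 to 12.55 on the other 25 arrays, and 10.82 over 7 B cell genes, against 6.18 to 8.41. On the 25 arrays the alveolar type 2 cell genes were at lung levels throughout. The Il10 probe set read 6.29 to 7.71 (log2) on 12 Il10-/- arrays and 3.92 to 4.25 on the 13 Il10+/+ arrays, so that it was higher where the gene is disrupted. Whether it lies outside the disrupted part is not given in the sources used here, and it cannot check the knockout. On replicate 1 of the 48 hr air libraries labelled Il10-/- it read 3.87, near the Il10+/+ arrays. Only some of the calls and gene counts that rest on that library are also given without it. In whole lung, fewer cells of a type and less RNA per cell cannot be told apart.

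Promoter sequences of the members are shown here because NF-κB acts on DNA. Bcl3 and Icam1 were the members that passed the test after O3, while Nfkbia is a known NF-κB target that did not. They are RefSeq sequences of the GRCm38.p6 build, 250 bases before and 50 bases after a transcription start site. Capitals mark a match to the κB consensus in Bcl3 and Nfkbia, and a match to the palindrome TTCNNNGAA, which binds STAT proteins, in Icam1.
Bcl3, chr7:19822706-19823005, minus strand: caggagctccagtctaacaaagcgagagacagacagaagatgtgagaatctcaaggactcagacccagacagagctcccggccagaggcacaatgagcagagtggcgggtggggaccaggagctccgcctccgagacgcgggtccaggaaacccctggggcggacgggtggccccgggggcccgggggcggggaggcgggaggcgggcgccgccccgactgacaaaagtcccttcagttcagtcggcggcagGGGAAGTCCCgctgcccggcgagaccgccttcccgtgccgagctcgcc
Icam1, chr9:21015690-21015989, plus strand: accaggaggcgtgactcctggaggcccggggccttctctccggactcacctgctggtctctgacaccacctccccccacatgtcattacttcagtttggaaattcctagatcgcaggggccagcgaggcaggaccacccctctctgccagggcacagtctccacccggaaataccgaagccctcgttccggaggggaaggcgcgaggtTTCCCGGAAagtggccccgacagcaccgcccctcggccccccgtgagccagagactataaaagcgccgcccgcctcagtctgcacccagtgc
Nfkbia, chr12:55492598-55492897, minus strand: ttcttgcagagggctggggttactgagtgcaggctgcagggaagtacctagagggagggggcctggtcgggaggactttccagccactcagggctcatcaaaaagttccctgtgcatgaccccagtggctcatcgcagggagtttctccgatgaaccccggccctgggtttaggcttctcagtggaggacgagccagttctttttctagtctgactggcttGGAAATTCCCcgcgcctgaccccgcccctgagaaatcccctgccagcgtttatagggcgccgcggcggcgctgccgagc
The Bcl3 match, GGGAAGTCCC, begins 2 bases after the start site, and the Nfkbia match, GGAAATTCCC, which matches as its reverse complement, begins 29 bases before it. The Icam1 window held no match to GGGRNNYYCC (R is A or G, Y is C or T, N is any base), the only κB pattern searched. Sites that differ from that pattern in any letter were not counted. The Icam1 palindrome, TTCCCGGAA, begins 42 bases before the start site. Of the 10 members, 9 had promoters in the table, 12 in all; Relb had none. A κB match on either strand lay in 6 of the 12 promoters, those of 4 members (Nfkb2, Nfkbia, Tnfaip3 and Bcl3), against 2779 of all 32851 promoters of that length (8.46%). Nfkb2 had 3 promoters, of which 2 overlap and share 1 match. The palindrome lay in 4 promoters of 4 members (Tnfrsf1a, Tnfrsf1b, Nfkb2 and Icam1), against 2726 of all promoters (8.3%). A match describes the letters and is not a measured binding site, and the lack of a match does not show that a site is absent. The motifs were chosen with earlier results of these data known, so the shares are a description.

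Of the members, only Bcl3 and Icam1 passed the test over O3. Over the 3 O3 times, 2 of 10 members rose in Il10-/- lungs (Bcl3 and Icam1), where 7.5% of all genes were called, and the same 2 rose in Il10+/+ lungs, where 3.67% were called. Without the library labelled as Il10-/- air 48 hr replicate 1 the Il10-/- count was 1 (Bcl3), where 4.04% of genes were called. The other 8 members passed in neither genotype. At an unadjusted p under 0.05 over O3 there were 5 members and 2623 genes in Il10-/- lungs. In Il10+/+ lungs there were 2 members and 2044 genes at that level. The median change of the 10 members was 0.18 (log2) in Il10-/- lungs, against -0.01 over all genes, and 0.08 in Il10+/+ lungs, against -0.01 over all genes. Each genotype's 3 O3 times were set against the same 4 air arrays, so the comparisons within a genotype share their controls. All tests were limma's moderated tests with Benjamini-Hochberg adjustment over the 12394 genes. The labels do not say that the samples of a group came from separate animals, so p-values measure the spread between these samples.

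**Figure D1:**
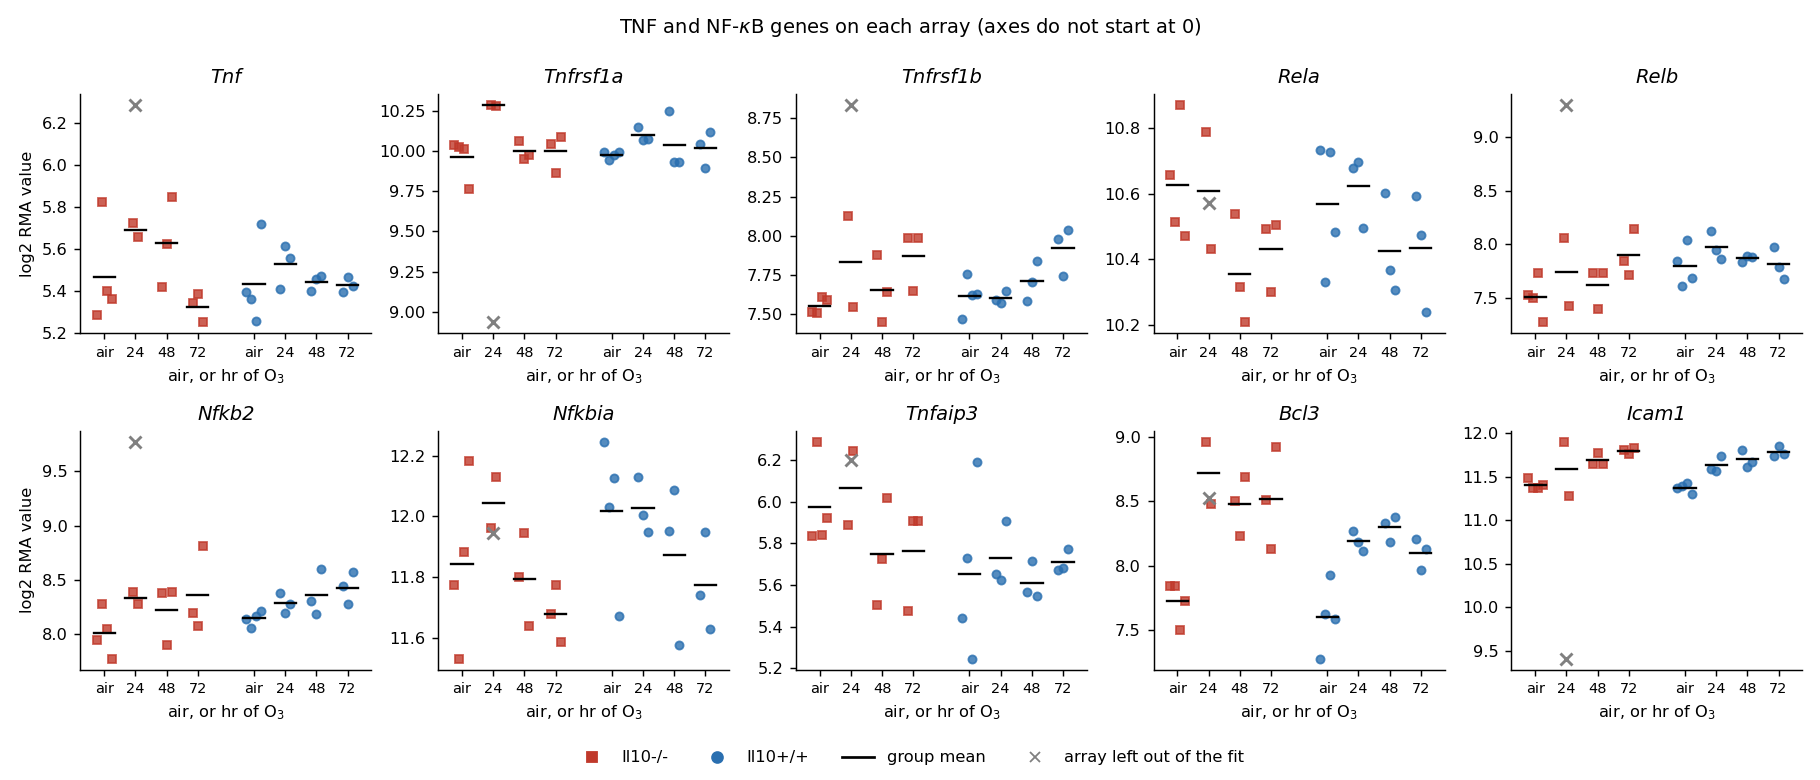
Log2 RMA values (vertical axis) of the 10 members on each array, by genotype and by air or hours of O3. Squares are Il10-/- arrays, circles Il10+/+ arrays, bars group means, and the cross is the array left out. Bcl3 stands higher on every O3 array than on every air array of its genotype, and the left-out array is 8.83 in Tnfrsf1b, 9.30 in Relb and 9.77 in Nfkb2.

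The ligand came first. Tnf, the cytokine itself, was among the 33.3% of genes lowest in mean level. On Il10-/- arrays it read 5.28, 5.82, 5.40 and 5.36 in air, 5.72 and 5.65 at 24 hr O3, 5.42, 5.62 and 5.84 at 48 hr, and 5.34, 5.38 and 5.25 at 72 hr. On Il10+/+ arrays the values were 5.39, 5.36, 5.26 and 5.72 in air, 5.41, 5.62 and 5.56 at 24 hr, 5.40, 5.46 and 5.47 at 48 hr, and 5.39, 5.46 and 5.42 at 72 hr. O3 and air arrays overlapped in both genotypes. The change over O3 was 0.08 (95% confidence interval -0.12 to 0.28, adjusted p 0.716) in Il10-/- lungs and 0.03 (-0.16 to 0.23, adjusted p 0.917) in Il10+/+ lungs.

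Both TNF receptors were measured. Tnfrsf1a encodes TNFR1, the receptor on most cells. In Il10-/- lungs it averaged 10.28 ± 0.0037 (SD, n = 2) at 24 hr O3 and 9.96 ± 0.13 (n = 4) in air, a difference of 0.32 (SE 0.10, adjusted p 0.0944). At 48 and 72 hr the Il10-/- differences were both 0.04. With each array centred on its median the 24 hr difference was 0.37 and passed the test (adjusted p 0.0356). Tnfrsf1b encodes TNFR2, which is found largely on leukocytes and endothelial cells. The 24 hr O3 arrays of Il10-/- mice were far apart, at 8.12 and 7.55. In air the 4 Il10-/- arrays lay between 7.51 and 7.61. Over O3 it stood 0.23 above air in Il10-/- lungs (interval 0.02 to 0.44, adjusted p 0.179) and 0.13 above air in Il10+/+ lungs (-0.08 to 0.33, adjusted p 0.585). At 72 hr, the time of the highest group means, it was 7.87 ± 0.20 in Il10-/- lungs and 7.92 ± 0.16 in Il10+/+ lungs (SD, n = 3 each). A second, dimmer probe set of Tnfrsf1b was 0.05 and 0.14 above air in Il10-/- and Il10+/+ lungs, and neither passed. Without the Il10-/- 24 hr O3 replicate 3, the Il10-/- change over O3 passed the test (0.33, adjusted p 0.0172), and so did the 24 hr change (0.57, adjusted p 0.018). That 24 hr group then holds 1 array, which is assumed to vary like the arrays of the other groups, here and wherever 1 of its 2 arrays is left out.

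The NF-κB subunits did not pass in any comparison. Rela encodes p65, the activating subunit of the classical pathway. It was 0.16 lower after O3 in Il10-/- lungs (interval -0.38 to 0.05) and 0.07 lower in Il10+/+ lungs (-0.28 to 0.14), with overlapping arrays. Without the library labelled as Il10-/- air 48 hr replicate 1 the Il10-/- difference was -0.08. Relb and Nfkb2 encode the subunits of the alternative pathway, and Nfkb2 is itself an NF-κB target. Relb differences from air over O3 were 0.25 in Il10-/- lungs (interval 0.00 to 0.49, adjusted p 0.229) and 0.09 in Il10+/+ lungs (-0.15 to 0.33, adjusted p 0.771). The Relb values of Il10-/- lungs at 72 hr O3 were 7.85, 7.72 and 8.15, against 7.53, 7.50, 7.74 and 7.27 in air, a difference of 0.39 (SE 0.15, adjusted p 0.119). The lowest of these O3 arrays lay just under the highest air array. Without the Il10-/- 24 hr O3 replicate 3 the Il10-/- Relb change over O3 was 0.35 and passed (adjusted p 0.0317). Nfkb2 stood 0.29 above air in Il10-/- lungs (interval 0.03 to 0.55, adjusted p 0.168) and 0.21 above air in Il10+/+ lungs (-0.04 to 0.47, adjusted p 0.411). A dimmer probe set of Nfkb2 gave -0.07 in Il10-/- and 0.04 in Il10+/+ lungs, so the 2 probe sets did not share a direction in Il10-/- lungs.

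The inhibitors did not pass either. Nfkbia encodes IκBα, which NF-κB induces within its own feedback. It differed from air over O3 by 0.00 in Il10-/- lungs (interval -0.25 to 0.24, adjusted p 0.993) and by -0.13 in Il10+/+ lungs (-0.37 to 0.11, adjusted p 0.656). At 72 hr its group means were the lowest, 11.68 ± 0.09 in Il10-/- lungs and 11.77 ± 0.16 in Il10+/+ lungs (SD, n = 3 each), against 11.84 ± 0.27 in Il10-/- air and 12.02 ± 0.25 in Il10+/+ air (n = 4 each). None of the 4 Nfkbia probe sets was called over O3. Tnfaip3 encodes A20, an enzyme that shuts off signals from the TNF receptor. Its values were dim and scattered, 5.25 to 6.19 over the 4 Il10+/+ air arrays alone, and it differed from air over O3 by -0.11 in Il10-/- lungs (interval -0.41 to 0.18) and by 0.03 in Il10+/+ lungs (-0.26 to 0.32).

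Bcl3, a nuclear IκB family protein that works with NF-κB dimers on DNA, was the member with the largest change. On Il10-/- arrays it read 7.84, 7.84, 7.50 and 7.72 in air, 8.96 and 8.48 at 24 hr O3, 8.51, 8.23 and 8.69 at 48 hr, and 8.51, 8.13 and 8.93 at 72 hr. On Il10+/+ arrays the values were 7.28, 7.62, 7.93 and 7.59 in air, 8.27, 8.19 and 8.11 at 24 hr, 8.33, 8.19 and 8.37 at 48 hr, and 8.21, 7.96 and 8.13 at 72 hr. Every O3 array lay above every air array of its genotype. The rise over O3 was 0.85 on the log2 scale (1.80-fold, SE 0.13, adjusted p 0.000351) in Il10-/- lungs and 0.59 (1.51-fold, SE 0.13, adjusted p 0.0112) in Il10+/+ lungs.

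By time, Bcl3 rose by 0.99 at 24 hr (adjusted p 0.00689), 0.75 at 48 hr (0.00705) and 0.79 at 72 hr (0.00573) in Il10-/- lungs, where 2.09%, 6.29% and 5.83% of all genes were called. It was the only member called at 24 and at 48 hr there. In Il10+/+ lungs it rose by 0.69 at 48 hr (adjusted p 0.0199), where 3.7% of genes were called. The Il10+/+ differences of 0.58 at 24 hr (adjusted p 0.418) and 0.50 at 72 hr (adjusted p 0.123) did not pass. At 24 hr only 0.0403% of genes were called in Il10+/+ lungs and no member was, with 731 genes and 2 members at an unadjusted p under 0.05. Without the doubted library, labelled Il10-/- air 48 hr replicate 1, Bcl3 in Il10-/- lungs still rose by 0.92, 0.67 and 0.72 at 24, 48 and 72 hr (adjusted p 0.0233, 0.0309 and 0.0251) and by 0.77 over O3 (adjusted p 0.0032).

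Single arrays decided some of the Bcl3 calls. In Il10-/- lungs the 24 hr call was lost without O3 24 hr replicate 1 (0.75, adjusted p 0.0566, 1 array left), the 48 hr call without O3 48 hr replicate 3 (0.64, 0.0553) and the 72 hr call without O3 72 hr replicate 3 (0.59, 0.0768). In Il10+/+ lungs the 48 hr call was lost without air 24 hr replicate 1 (0.58, adjusted p 0.0846), O3 48 hr replicate 1 (0.68, 0.0667) or O3 48 hr replicate 3 (0.65, 0.113), and the call over O3 without air 24 hr replicate 1 (0.48, 0.0865). The Il10-/- call over O3 was kept without any 1 of the 25 arrays (0.76 to 0.93, adjusted p 6.9e-05 to 0.0032).

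Icam1 encodes ICAM-1, the adhesion molecule that leukocytes bind on endothelium and epithelium. On Il10-/- arrays it read 11.49, 11.37, 11.38 and 11.41 in air, 11.91 and 11.28 at 24 hr O3, 11.65, 11.77 and 11.65 at 48 hr, and 11.81, 11.76 and 11.83 at 72 hr. On Il10+/+ arrays it read 11.37, 11.40, 11.43 and 11.31 in air, 11.59, 11.57 and 11.74 at 24 hr, 11.81, 11.61 and 11.67 at 48 hr, and 11.74, 11.86 and 11.76 at 72 hr. Apart from replicate 3 of 24 hr O3 in Il10-/- mice, which lay below all 4 air arrays, every O3 array lay above the air arrays of its genotype. At 72 hr Icam1 rose by 0.39 in Il10-/- lungs (1.31-fold, SE 0.10, adjusted p 0.0259) and by 0.41 in Il10+/+ lungs (1.33-fold, SE 0.10, adjusted p 0.0268), where 3.15% of genes were called. Over the 3 times it rose by 0.28 in Il10-/- lungs (SE 0.08, adjusted p 0.0381) and by 0.33 in Il10+/+ lungs (SE 0.08, adjusted p 0.021). The 48 hr differences of 0.28 in Il10-/- lungs (adjusted p 0.116) and 0.32 in Il10+/+ lungs (adjusted p 0.0871) did not pass.

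The Icam1 calls turned on single arrays, in both directions. Without the same doubted library the Il10-/- differences were 0.38 at 72 hr (adjusted p 0.0646) and 0.27 over O3 (adjusted p 0.113), and both calls were lost while the changes stayed about as large. The Il10-/- call at 72 hr was also lost without air 24 hr replicate 2 (0.38, adjusted p 0.0564), and without 72 hr O3 replicate 1 (0.38, 0.0718), 2 (0.41, 0.058) or 3 (0.38, 0.118). The Il10-/- call over O3 was also lost without air 24 hr replicate 1 (0.31, adjusted p 0.0605) or 2 (0.27, 0.0962), air 48 hr replicate 2 (0.28, 0.0781), O3 48 hr replicate 2 (0.27, 0.0689), or O3 72 hr replicate 1 (0.28, 0.0543) or 3 (0.28, 0.0614). In these cases the change itself hardly moved, but without O3 24 hr replicate 1 it was 0.18 (adjusted p 0.0752). In Il10+/+ lungs the 72 hr call was lost without air 24 hr replicate 1 (0.41, adjusted p 0.0682), air 48 hr replicate 2 (0.39, 0.0712), and without 72 hr O3 replicate 1 (0.43, 0.063), 2 (0.37, 0.127) or 3 (0.42, 0.0991). Its call over O3 was lost without air 24 hr replicate 1 (0.33, adjusted p 0.078) or 2 (0.34, 0.0505) or air 48 hr replicate 2 (0.31, 0.0803). Other arrays moved the calls the opposite way. The lowest adjusted p with 1 array left out was 0.00108 at 72 hr and 0.000134 over O3 in Il10-/- lungs, and 0.000731 at 72 hr and 0.000635 over O3 in Il10+/+ lungs. Without the Il10-/- 24 hr O3 replicate 3, Icam1 in Il10-/- lungs passed at 24 hr as well (0.49, adjusted p 0.00228), with 1 array left in that group. Without both Il10-/- arrays of 24 hr O3, the 48 hr differences passed in both genotypes, at the same size as before. They were 0.28 (SE 0.07, adjusted p 0.0136) in Il10-/- and 0.32 (SE 0.07, adjusted p 0.00705) in Il10+/+ lungs. Those arrays, at 11.91 and 11.28 (SD 0.45), take no part in the 48 hr differences. They enter them only through the estimate of the spread that all groups share. Leaving out either of them alone kept these sizes too.

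**Figure D2:**
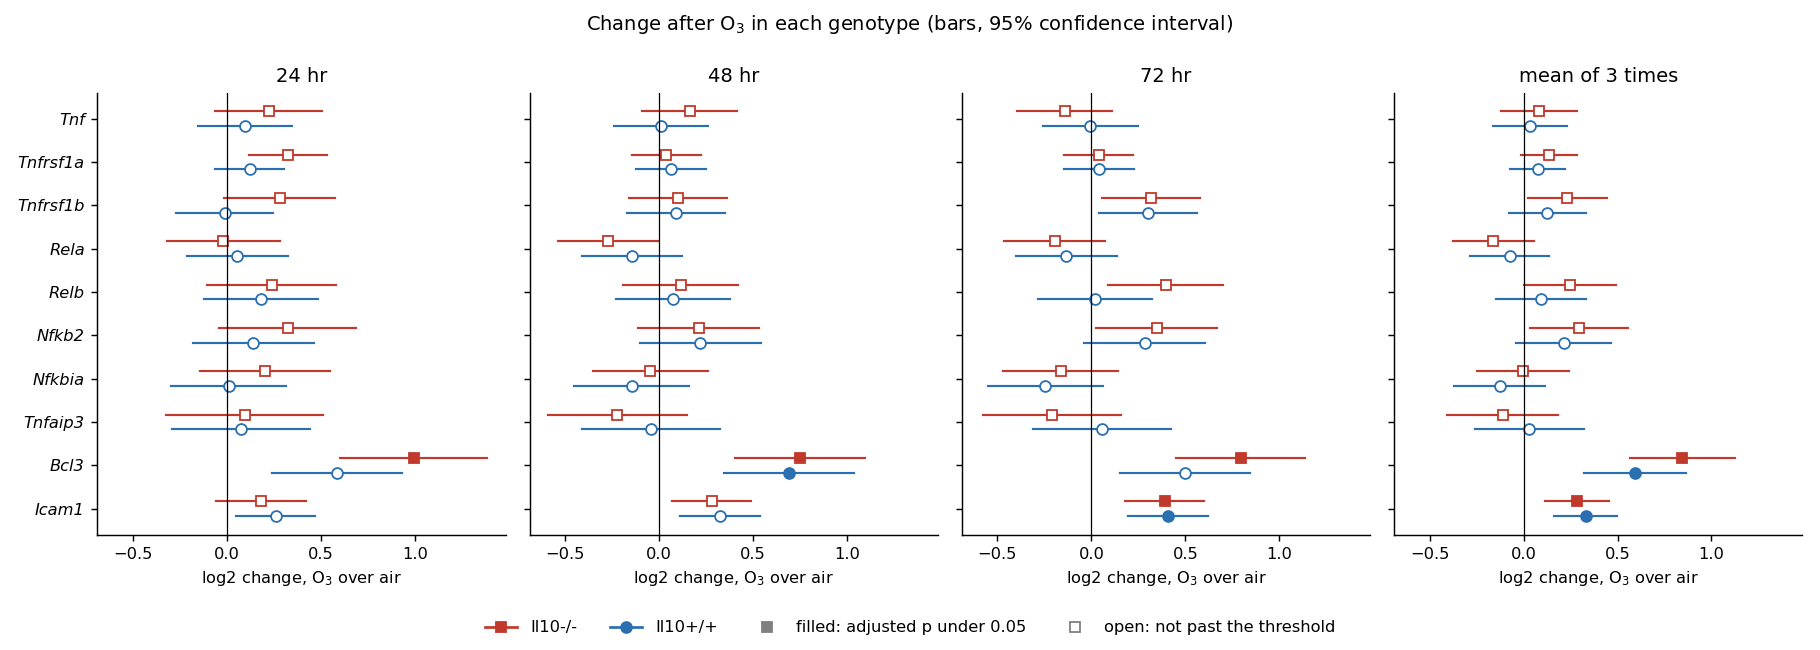
Log2 change of each member, O3 over air (horizontal axis), at each time and over the 3 times, with 95% confidence intervals. Squares are Il10-/- lungs and circles Il10+/+ lungs, filled where the adjusted p was under 0.05. The filled points are those of Bcl3 and Icam1, and over the 3 times the Bcl3 points lie at 0.85 in Il10-/- and 0.59 in Il10+/+ lungs.

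The F test of any exposure effect over both genotypes called Bcl3 (adjusted p 0.000125) and Icam1 (adjusted p 0.00227), 2 of 10 members, where 17.2% of all genes were called. The genes whose values ran closest to Bcl3 over the 25 arrays were Rab20 (Pearson's r 0.892), Socs3 (0.887), a feedback inhibitor of cytokine signals, and Junb (0.882), a subunit of the AP-1 transcription factor. Those closest to Icam1 were Clec4n (0.943), a receptor of myeloid cells, Psmb5 (0.933), a subunit of the proteasome, and Apex1 (0.913), a DNA repair enzyme. These r values are a description over arrays that share their groups.

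No member passed the test between genotypes. In air 0 of 10 members were called, where 0.00807% of genes were, or 0.129% of genes without the doubted Il10-/- library. Of the members, Relb was lower in Il10-/- air at an unadjusted p of 0.0458 (-0.29, interval -0.57 to -0.01, adjusted p 0.705). Without the doubted library the Relb difference was -0.36 (adjusted p 0.613). At 24, 48 and 72 hr O3 no member was called either, where 0.662%, 0.00807% and 0.0242% of genes were, nor over the 3 O3 times, where 0.637% were. At an unadjusted p under 0.05 there were 866 genes and 1 member in air, and 1480 genes and 1 member over O3, which was Bcl3.

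Bcl3 stood 0.38 higher in Il10-/- than in Il10+/+ lungs over O3 (interval 0.16 to 0.60, unadjusted p 0.00197, adjusted p 0.109). The difference was 0.53 at 24 hr (adjusted p 0.234), 0.18 at 48 hr (adjusted p 1) and 0.42 at 72 hr (adjusted p 1), and 0.12 in air (interval -0.20 to 0.44), or 0.20 in air without the doubted Il10-/- library (adjusted p 0.878). Among group means the order was Il10-/- at 24 hr (8.72), 72 hr (8.52) and 48 hr O3 (8.48), Il10+/+ at 48 hr (8.30), 24 hr (8.19) and 72 hr O3 (8.10), then air in Il10-/- (7.73) and Il10+/+ lungs (7.60). At 24 hr O3 both Il10-/- arrays, 8.96 and 8.48, lay above the 3 Il10+/+ arrays, which reached 8.27, while at 48 and 72 hr the arrays of the genotypes overlapped. The Bcl3 difference over O3 passed without the Il10-/- 24 hr O3 replicate 3 (0.46, adjusted p 0.0133) or 72 hr O3 replicate 2 (0.44, adjusted p 0.0492), and the 24 hr difference passed without the same 24 hr array (0.77, adjusted p 0.0491), where 1 Il10-/- array stood against 3 Il10+/+ arrays.

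Icam1 differed by -0.01 between Il10-/- and Il10+/+ lungs over O3, with an interval of -0.15 to 0.12. For Tnf the difference was 0.08 (-0.08 to 0.24), for Tnfrsf1a 0.04 (-0.08 to 0.16) and for Tnfrsf1b 0.04 (-0.12 to 0.21). The Tnfaip3 difference of 0.18 had an interval of -0.06 to 0.41. Rela, Relb, Nfkb2 and Nfkbia lay between -0.13 and -0.03.

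**Figure D3:**
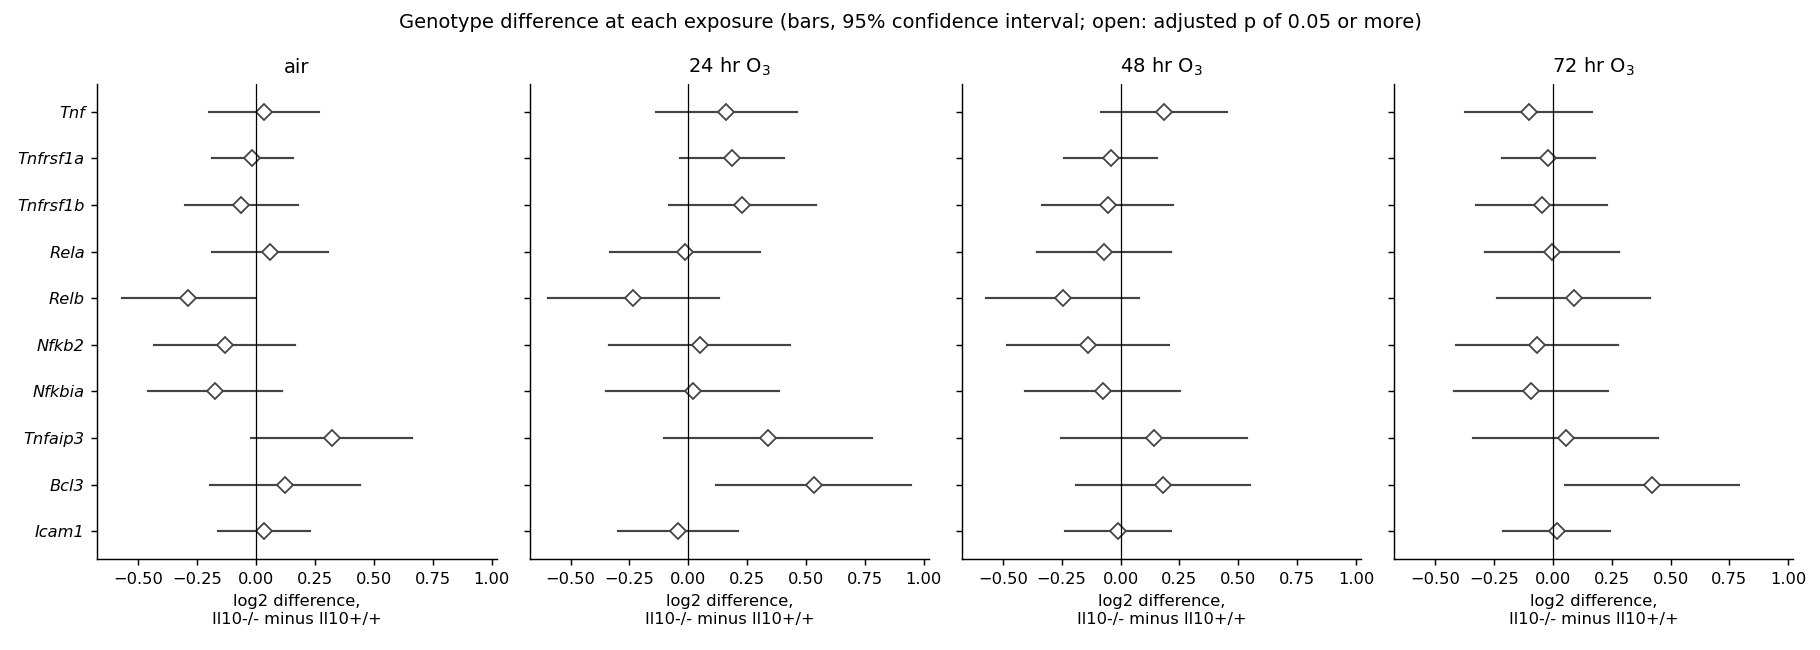
Log2 difference of each member, Il10-/- minus Il10+/+ (horizontal axis), in air and at each O3 time, with 95% confidence intervals. No point passed the test, and the Bcl3 points at 24 and 72 hr O3 lie at 0.53 and 0.42.

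Whether the genotypes responded differently was tested directly. The difference between the genotypes' mean O3 responses called no member and no gene (0%), with 505 genes and no member at an unadjusted p under 0.05, and the F test of the interaction called none either (0%), with 417 genes and no member at that level. For Bcl3 the response was 0.25 larger in Il10-/- lungs (interval -0.14 to 0.64, adjusted p 1), or 0.18 larger without the doubted library, and for Icam1 it was 0.05 smaller (-0.29 to 0.19, adjusted p 1). The widest interval among the members was that of Tnfaip3, -0.56 to 0.27.

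Other genes of the pathway were followed through 4 lists, which were chosen with earlier results of these data known. Their counts beside the shares of all genes are therefore a description. NF-κB targets held the most calls. Of the 28 measured genes of 31 listed, 11 rose over O3 in Il10-/- lungs, where 7.5% of all genes were called, and 7 rose in Il10+/+ lungs, where 3.67% were. No called target was lower after O3, and 17 and 21 of the 28 did not pass in Il10-/- and Il10+/+ lungs. Targets that passed in neither genotype went both ways. Examples, named after their values were seen, are Ccl5 (-0.61 in Il10-/-, -0.47 in Il10+/+) and Vcam1 (-0.40 in Il10-/-, -0.45 in Il10+/+). Others are Cxcl10 (0.77 in Il10-/-, 0.48 in Il10+/+) and Ptgs2 (0.35 in Il10-/-, 0.59 in Il10+/+). Without the library labelled as Il10-/- air 48 hr replicate 1, 6 of the 28 rose in Il10-/- lungs, where 4.04% of all genes were called, and 6 in Il10+/+ lungs, where 3.49% were. The list's median change was 0.38 in Il10-/- lungs (0.33 without that library) and 0.25 in Il10+/+ lungs. Lcn2, which encodes an iron-withholding antibacterial protein, rose by 1.78 (SE 0.17, adjusted p 1.68e-06) in Il10-/- and by 1.05 (SE 0.16, adjusted p 0.000545) in Il10+/+ lungs. F3, the tissue factor that starts clotting, rose by 1.47 in Il10-/- lungs (adjusted p 1.13e-05) and by 1.28 in Il10+/+ lungs (adjusted p 6.2e-05). Ccl2, the chemokine that draws monocytes, rose by 0.72 in Il10-/- lungs (adjusted p 0.0201) and by 0.81 in Il10+/+ lungs (adjusted p 0.0126). Without the doubted library Lcn2 and F3 still rose in Il10-/- lungs, and Ccl2 did not pass (0.70, adjusted p 0.0709). Between genotypes over O3, 2 of the 28 were higher in Il10-/- lungs, where 0.637% of all genes were called, named after their values were seen: Il1b, the cytokine IL-1β (0.88, adjusted p 0.0123), and Mmp9, a matrix protease stored in neutrophils (0.81, adjusted p 0.0111). Against air, Il1b stood at 1.07 in Il10-/- (adjusted p 0.00264) and 0.29 in Il10+/+ lungs (adjusted p 0.529). Mmp9 passed in neither genotype (0.43 in Il10-/-, adjusted p 0.189, and -0.52 in Il10+/+, adjusted p 0.138).

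The other lists held few calls, against the same 7.5% of all genes in Il10-/- and 3.67% in Il10+/+ lungs. Of 9 measured subunits, inhibitors and kinases of NF-κB, 1 rose over O3 in Il10-/- lungs, Nfkbie, the inhibitor IκBε (0.49, adjusted p 0.0184), and none passed in Il10+/+ lungs (Nfkbie 0.24, adjusted p 0.327). Of 18 proteins of TNF receptor signalling, Traf1, an adaptor at the receptors, fell by 0.48 in Il10-/- lungs (adjusted p 0.0184) and fell by 0.47 in Il10+/+ lungs (adjusted p 0.0293). Tnip2, a partner of A20, rose by 0.24 in Il10-/- lungs (adjusted p 0.0341) and stood 0.23 above air in Il10+/+ lungs (adjusted p 0.0593). Of 19 other TNF family ligands and receptors, 2 rose in both genotypes. Tnfsf9, the costimulatory ligand 4-1BBL, rose by 1.28 (adjusted p 1.77e-05) in Il10-/- and by 1.23 (adjusted p 3.55e-05) in Il10+/+ lungs, and Tnfrsf12a, the receptor of TWEAK, by 0.85 (adjusted p 0.0103) in Il10-/- and 1.15 (adjusted p 0.00116) in Il10+/+ lungs. Without the doubted library Nfkbie (0.61, adjusted p 0.00798) and Tnfsf9 (1.21, adjusted p 0.000215) still rose in Il10-/- lungs, and Traf1 (-0.45, adjusted p 0.0758), Tnip2 (0.24, adjusted p 0.0976) and Tnfrsf12a (0.79, adjusted p 0.0518) did not pass there. Median changes of these 3 lists lay between -0.04 and 0.16.

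**Figure D4:**
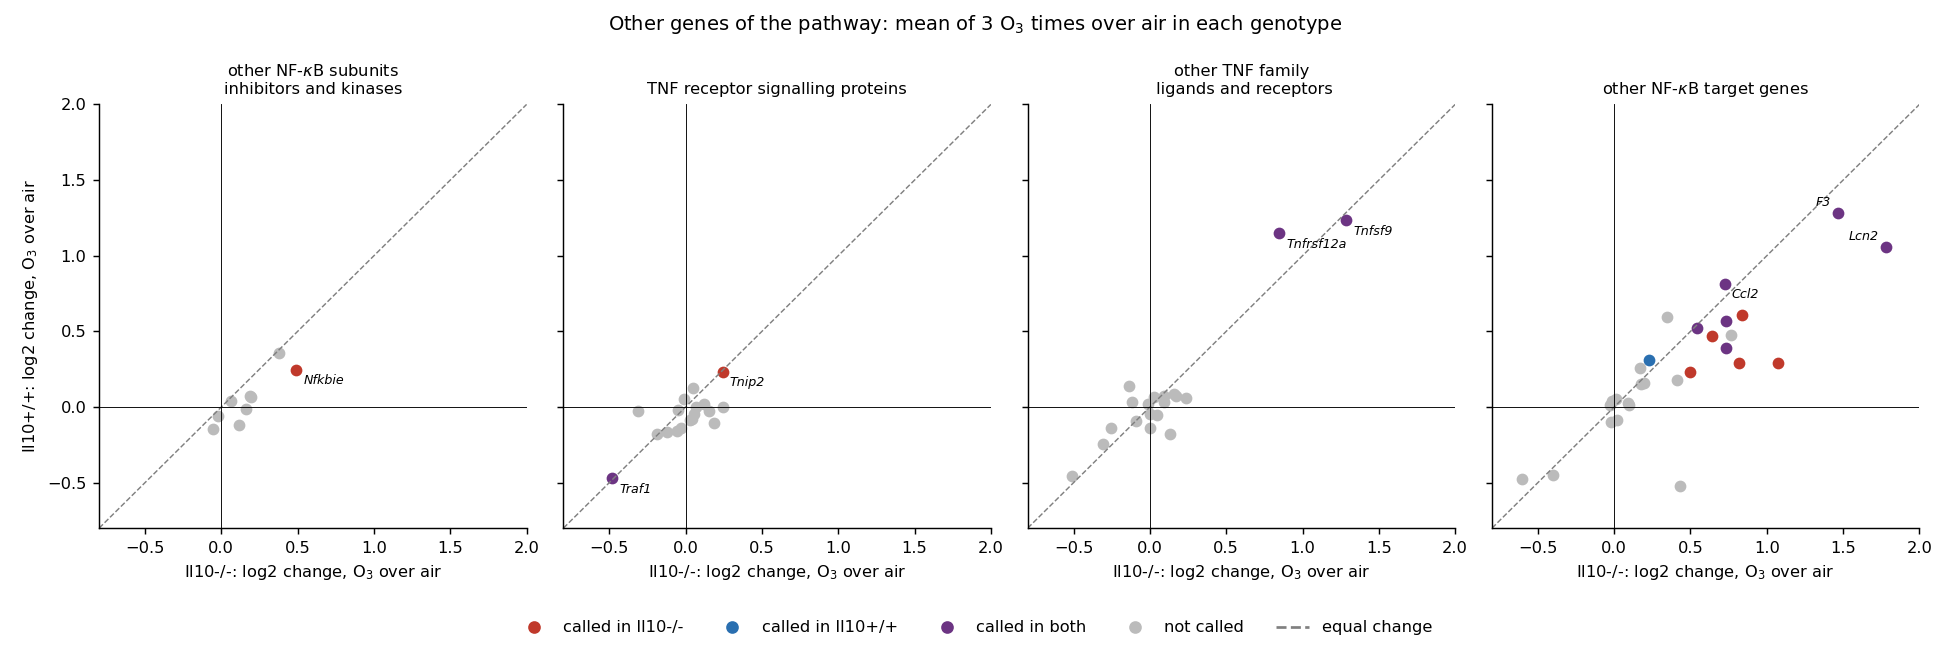
Mean log2 change over the 3 O3 times, O3 over air, of the other pathway genes in Il10-/- lungs (horizontal axis) and Il10+/+ lungs (vertical axis), 1 point a gene. Colors give the genotype in which a gene was called, and the dashed line marks equal change. Called targets lie above 0 in both genotypes, up to 1.78 in Il10-/- and 1.28 in Il10+/+ lungs.

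Markers of other cells, in lists chosen with earlier results of these data known, were counted beside these changes. The marker genes named were picked after their values were seen. Over all genes 7.5% were called over O3 in Il10-/- lungs and 3.67% in Il10+/+ lungs. Of 11 measured neutrophil genes, 2 rose over O3 in Il10-/- lungs (Mmp8 and Cd177) and none passed in Il10+/+ lungs. Over O3, 4 were higher in Il10-/- than in Il10+/+ lungs, where 0.637% of all genes were called (S100a8, S100a9, Csf3r and Mmp8). Against air, S100a8, S100a9 and Csf3r passed in neither genotype. They stood at 0.93, 0.95 and 0.52 in Il10-/- and at -1.04, -1.18 and -0.49 in Il10+/+ lungs. The genotype difference in mean O3 response called 0 of the 11, where 0% of all genes were called. The mean log2 level over the neutrophil genes was 6.40 to 7.14 on Il10-/- O3 arrays and 6.11 to 6.57 in Il10-/- air, and 5.89 to 6.84 on Il10+/+ O3 arrays and 6.25 to 6.93 in Il10+/+ air. Of 12 endothelial genes, 3 fell over O3 in Il10-/- lungs (Pecam1, Tie1 and Cldn5) and none passed in Il10+/+ lungs. Of 11 macrophage genes, Marco and Msr1 rose in Il10-/- lungs and none passed in Il10+/+ lungs. The median of that list was 0.05 in Il10-/- and 0.06 in Il10+/+ lungs. Its uncalled genes went both ways in Il10-/- lungs, such as Cd68 (0.64) and Fabp4 (-0.56). Of 6 alveolar type 1 cell genes only Cav1 fell, and of 9 alveolar type 2 cell genes only Sftpd rose, both in Il10-/- lungs. In those lungs the list medians were -0.11 for type 1 and 0.06 for type 2 cell genes. No club cell, B cell or T cell gene passed over O3 in either genotype. The list medians over O3 in Il10-/- and Il10+/+ lungs were -0.51 and -0.59 for B cell genes. They were -0.07 and -0.25 for T cell genes, and -0.09 and -0.05 for club cell genes. The median B cell difference, Il10-/- minus Il10+/+, was -0.78 in air and -0.82 over O3, with none called. Without the doubted library Mmp8, Pecam1, Cldn5, Cav1 and Sftpd passed over O3 in Il10-/- lungs and Cd177, Tie1, Marco and Msr1 did not, and 3 of the 4 neutrophil genes passed between genotypes (Mmp8 did not, adjusted p 0.0559). The part of these cells in the changes of Bcl3, Icam1 and the other targets was not tested.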

How the data were processed

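RNA from left lungs was measured on 26 Affymetrix arrays. The deposited values are log2 values, which the authors made with Robust Multichip Average (RMAExpress; version not given in the sources used here), and they were used as deposited. Background was not assessed probe set by probe set. Precision is limited by the number of arrays. Genes were named from the platform annotation: of 22690 probe sets, 20393 had 1 symbol, 691 had several and 1606 were not listed. Where a gene had several probe sets (4958 genes), the brightest by its mean on the 25 arrays stood for it.

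A linear model with 8 group means and 17 residual degrees of freedom, in which each genotype's 24 and 48 hr air arrays formed 1 group, was fitted with limma (version 3.58.1, R 4.3.3), with Benjamini-Hochberg adjustment over 12394 genes and a threshold of 0.05. No gene was filtered out. The steps were tested on simulated data. The members, the 4 pathway lists and the 8 marker lists were chosen with earlier results of these data known, and so were the motifs searched. Besides the members, the text names by rule the called genes of each pathway list with the largest changes, up to 3, and the 3 genes closest to each called member. The other pathway genes and the marker genes were named after their values were seen. Plots used Python 3.11.15 and matplotlib 3.10.9. Alternatives were all 26 arrays, a block for the replicate number, fits of the compared arrays alone, the letter c that ends some source names as a covariate, median centring, leaving out the 33.3% of genes lowest in mean, averaging each gene's probe sets, air of the same time, the methods' two-way analysis of variance at p of 0.01, each array left out and, added after seeing the data, both Il10-/- 24 hr O3 arrays left out.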

Additional observations from a re-analysis of the deposited data

Results flagged for a closer look

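Tnfrsf1a read 9.764 on the Il10-/- air 48 hr replicate 2, set off from the other 3 Il10-/- air arrays by a gap of 0.903 of the group's range. The limit for such a gap is passed by chance in about 1 in 20 groups.

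The Il10-/- 24 hr O3 replicate 2, left out of the comparisons, lay above the highest Il10-/- air array in 5 members. It read 6.286 in Tnf, against at most 5.825 in air, 8.834 in Tnfrsf1b (7.608), 9.303 in Relb (7.738), 9.773 in Nfkb2 (8.277) and 8.524 in Bcl3 (7.845). Icam1 read 9.41 on it and Tnfrsf1a 8.94, below all 25 other arrays. Its mean log2 level was 7.66 over 12 endothelial genes, 6.44 over 6 alveolar type 1 cell genes and 6.05 over 9 club cell genes, and 9.22 over 9 T cell genes. The part of its cell makeup in these values was not tested.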

How the results depend on the processing

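No member's call turned direction under any alternative. With all 26 arrays the members called were 1 for O3 at 72 hr and 1 over O3 in Il10-/- lungs, 0 at 48 hr, 0 at 72 hr and 0 over O3 in Il10+/+ lungs, and 1 in the exposure F test; Icam1 passed nowhere (over O3 in Il10-/- lungs 0.04, adjusted p 0.958). Air of the same time was available for 24 and 48 hr only. With it there were 0 at 24 hr in Il10-/- (Bcl3 0.88, adjusted p 0.068) and 0 at 48 hr in Il10+/+ lungs (Bcl3 0.54, adjusted p 0.194). With only the arrays compared there were 0 at 24 hr (Bcl3 0.99, adjusted p 0.188) and 1 over O3 (Icam1 0.28, adjusted p 0.176) in Il10-/- lungs, with the changes of the same size. With the letter c as a covariate there were 2 at 48 hr in Il10-/- (Icam1 gained, adjusted p 0.0398) and 0 at 72 hr in Il10+/+ lungs (Icam1 lost, adjusted p 0.0768), and Tnfrsf1b passed at 72 hr (adjusted p 0.0315) and over O3 (0.0415) in Il10-/- lungs. Most Il10-/- air arrays carry the letter and no Il10-/- array of 48 or 72 hr O3 does. In Il10-/- lungs the covariate therefore largely goes with air and is not an independent check. With median centring there were 2 at 24 hr in Il10-/- lungs. Without both Il10-/- 24 hr O3 arrays there were 2 at 48 hr in each genotype. The cause was not tested.

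Leaving out each array in turn, the members called in Il10-/- lungs ranged from 0 to 3 at 24 hr, 0 to 2 at 48 hr, 0 to 2 at 72 hr and 1 to 4 over O3. In Il10+/+ lungs they ranged from 0 to 0 at 24 hr, 0 to 2 at 48 hr, 0 to 1 at 72 hr and 0 to 2 over O3. Between genotypes they ranged from 0 to 1 at 24 hr and over O3 and were 0 in air and at 48 and 72 hr, they were 0 for both interaction tests, and they ranged from 2 to 3 in the exposure F test. Counts over all genes moved too: for O3 over air in Il10-/- lungs from 929 to between 501 and 1972 when an array was left out and to 296 with all 26 arrays, and in Il10+/+ lungs from 455 to between 225 and 824, and to 21; at 24 hr in Il10-/- lungs from 259 to between 161 and 1592, and to 0 with only the arrays compared; and between genotypes over O3 from 79 to between 35 and 856. With the replicate block the members called were the same in number in all comparisons, and Bcl3 over O3 in Il10-/- lungs was 0.79 (adjusted p 0.00126). Same-numbered arrays had a median correlation of deviations of 0.0971 (-0.319 to 0.461), against -0.0683 (-0.448 to 0.535) for arrays of different number. A median of widely spread correlations does not settle whether the numbers pair the samples. The methods' analysis of variance called 2 members for exposure and 0 for the interaction. Precision is limited by the 2 to 4 arrays a group.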
